A study of Homo sapiens with 12 samples.

Results

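The genes described here are 10 known targets of estrogen receptor alpha, the hormone-activated transcription factor encoded by ESR1: GREB1, NRIP1, RARA, MYB, TFF1, TFF3, IGFBP4, CA12, PDZK1 and SIAH2. They were taken as a list of known targets and matched by symbol to the Ensembl identifiers of the count files. All 10 were found among 57773 identifiers, and all 10 were among the 14714 genes that passed a filter on low counts and were tested. RNA was measured in T47D, an established line of luminal breast cancer cells, engineered so that a hairpin RNA directed at PSMD2 can be switched on. PSMD2 is a part of the 19S cap that admits proteins to the proteasome. In Lo19S cells the hairpin had been induced by 3 days of doxycycline at 0.2 µg/ml and the drug then withdrawn for 24 h, and control cells carried the same construct uninduced. Cells of either state were then given 20 nM bortezomib, a proteasome inhibitor, or its solvent DMSO for 16 h. The 4 groups of 3 libraries each were thus Lo19S cells with bortezomib, control cells with bortezomib, Lo19S cells with DMSO and control cells with DMSO. Doxycycline was given to Lo19S cells and not to control cells, so its own effect cannot be told apart from that of the hairpin. The labels do not say that the libraries came from separate cultures, and p-values then measure only the spread between these samples, which may be technical.

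Estrogen receptor alpha binds DNA at estrogen response elements when it holds its hormone, mostly at enhancers, and recruits coactivators that raise transcription of nearby genes. In luminal breast cells its targets include other transcription regulators, secreted peptides and membrane proteins, and several of them are read as markers of receptor activity. The receptor protein is itself degraded by the proteasome. RNA-seq measures the mRNA of the receptor and of its targets, not the receptor protein.

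Library totals ran from 7376597 to 15003480 counts, and levels are given as CPM, the count scaled to the library total after TMM normalisation, a unit that serves to compare libraries and not genes of different length. PSMD2, the target of the hairpin, had 541, 546 and 539.6 CPM in Lo19S cells and 1509, 1510.4 and 1528 CPM in control cells under bortezomib, and 183, 189 and 184 CPM in Lo19S cells and 408, 392 and 417 CPM in control cells under DMSO. It was lower in Lo19S cells in every library of either treatment, at 35.8% of control cells under bortezomib and 45.7% under DMSO. Summed luminal epithelial markers, 9 genes that include ESR1, ran from 3887 to 4062 CPM in Lo19S cells and 3928 to 4011 CPM in control cells under bortezomib, against 6192 to 6283 CPM and 6963 to 7053 CPM under DMSO, and none of the 9 was at 0. The 9 also include PGR, KRT19, GATA3 and FOXA1, which stand on the lists of estrogen-raised genes and partner factors below. With bortezomib 6 of the 9 fell in either state and 3 rose, KRT18, EPCAM and CDH1. Summed basal epithelial markers, 5 genes, ran from 6.49 to 8.93 CPM in Lo19S cells and 16.9 to 21.7 CPM in control cells under bortezomib, against 47.9 to 51.2 CPM and 163 to 184 CPM under DMSO. Nearly all of that sum was ACTA2, smooth muscle actin, with 7.13 and 17.7 CPM on average under bortezomib and 48.6 and 174 CPM under DMSO in Lo19S and control cells, while none of KRT5, KRT14, KRT17 and TP63 exceeded 1.22 CPM in any library. Summed fibroblast markers, 6 genes, ran from 44.1 to 47.1 CPM in Lo19S cells and 63.5 to 69.7 CPM in control cells under bortezomib, against 33.0 to 33.8 CPM and 26.0 to 31.4 CPM under DMSO, mostly from the collagen gene COL1A1. COL1A2 was at 0 in all Lo19S libraries, and DCN in those with bortezomib. Summed leukocyte markers did not exceed 1.34 CPM and endothelial markers 0.372 CPM in any library. The luminal, basal and fibroblast sums thus moved with the groups, and their part in the results was not tested. Replicate 3 of the DMSO-treated control cells stood apart from the other libraries of its group: the chi-square statistic per degree of freedom between it and them was 3.98 and 4.36, against 1.16 to 2.01 for all other replicate pairs. Calls of the targets and of the gene lists that changed without it are given beside their values.

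Promoter sequence was at hand for 7 of the 10 genes, as 12 windows of 300 bases (250 upstream and 50 downstream of a RefSeq gene start, GRCh38.p14). Each was searched on both strands for one arm of an estrogen response element, GGTCA or its reverse complement TGACC, and for the full palindrome GGTCANNNTGACC, which holds both arms. An arm was found in 5 of the 12 windows, which belong to PDZK1, CA12, RARA and NRIP1, and 37.38% of the 35116 promoter windows of the table hold one. The windows of PDZK1 overlap and hold the same arm, which is thus counted again among the 5. RARA and NRIP1 also have windows at other gene starts that hold no arm. The full palindrome was in none of the 12 and in 0.057% of all windows. The 250 upstream bases are shown for the 3 genes that hold an arm and fell with bortezomib in both states, which leaves out NRIP1 (an arm at 170 bases), as it was called lower in control cells and not in Lo19S cells. They are written in lower case on the strand of the gene, 5′ to 3′, with the arms in capitals. PDZK1 (chr1:145707401-145707650, minus strand) has one that starts 68 bases upstream of the gene start, CA12 (chr15:63381847-63382096, minus strand) one at 196 bases, and RARA (chr17:40308930-40309179, plus strand) 3, at 229, 159 and 92 bases. A match is a description of the letters and not a site shown to be bound.
PDZK1: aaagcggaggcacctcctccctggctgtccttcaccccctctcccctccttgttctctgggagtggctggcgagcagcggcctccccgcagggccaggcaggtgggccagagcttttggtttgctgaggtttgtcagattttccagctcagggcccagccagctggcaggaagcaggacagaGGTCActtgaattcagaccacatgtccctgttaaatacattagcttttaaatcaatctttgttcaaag
CA12: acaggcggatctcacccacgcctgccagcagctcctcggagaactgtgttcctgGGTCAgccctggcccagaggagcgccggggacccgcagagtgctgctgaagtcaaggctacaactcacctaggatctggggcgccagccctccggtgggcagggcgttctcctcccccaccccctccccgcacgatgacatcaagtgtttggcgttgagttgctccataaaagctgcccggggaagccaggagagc
RARA: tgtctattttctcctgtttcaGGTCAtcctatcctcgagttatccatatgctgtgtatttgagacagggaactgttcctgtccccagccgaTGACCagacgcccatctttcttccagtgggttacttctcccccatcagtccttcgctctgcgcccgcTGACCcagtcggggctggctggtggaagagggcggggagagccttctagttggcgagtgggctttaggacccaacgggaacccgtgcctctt

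Bortezomib lowered the mRNA of the receptor and of its targets in control cells. ESR1 fell 8.69-fold, and all 10 targets were called lower (edgeR quasi-likelihood test, adjusted p under 0.05, adjusted over all genes tested), 8 of them at least 2-fold. MYB fell 19.7-fold, GREB1 12.8-fold and IGFBP4 6.88-fold, while SIAH2 fell 1.55-fold and NRIP1 1.17-fold. Over all genes tested, 42.2% were called lower and 39.2% higher in this comparison, so that a fall alone was common. With library totals in place of TMM scaling these shares were 57.4% and 25.3%, and the median of all genes moved to -0.42 on the log2 scale. The median log2 fold change of the 10 targets was -1.92, against -0.04 for all genes tested, and under library totals -2.30.

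ESR1 itself had 28.6, 28.1 and 28.0 CPM in bortezomib-treated control cells, against 246, 244 and 245 CPM with DMSO. The libraries of each group lay close together and the groups were far apart (log2 fold change -3.12, SE 0.0537, adjusted p = 1.02e-42). ESR1 overlaps SYNE1 on the opposite strand, and SYNE1 had 3.58% as many counts as ESR1 over all libraries. The share was larger with bortezomib. SYNE1 had 39, 52 and 43 counts in treated control cells, where ESR1 had 234, 252 and 235. In treated Lo19S cells it had 42, 33 and 65, where ESR1 had 338, 269 and 491. With DMSO it had 50, 50 and 36 in control cells, where ESR1 had 3262, 2621 and 2637. Whether SYNE1 reads entered the ESR1 counts was not tested.

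Among the transcription regulators, GREB1 (ENSG00000196208, chromosome 2), a chromatin-bound cofactor of the receptor, had 27.2, 27.8 and 31.6 CPM in bortezomib-treated control cells, against 365, 359 and 389 CPM with DMSO. Every treated library was below every DMSO library by a wide margin (log2 fold change -3.68, SE 0.0550, adjusted p = 2.41e-45). MYB (ENSG00000118513, chromosome 6), a transcription factor of proliferating progenitor cells, had 1.22, 1.45 and 1.43 CPM with bortezomib, against 30.4, 24.5 and 26.3 CPM with DMSO. Every treated library was far below every DMSO library (log2 fold change -4.30, SE 0.164, adjusted p = 2.58e-28). RARA (ENSG00000131759, chromosome 17), the retinoic acid receptor alpha, had 29.9, 30.7 and 32.3 CPM with bortezomib, against 83.8, 81.2 and 105 CPM with DMSO. Its DMSO replicate 3 was the highest, and the groups were still clearly separate (log2 fold change -1.54, SE 0.0899, adjusted p = 4.61e-14). NRIP1 (ENSG00000180530, chromosome 21), a corepressor that binds the hormone-bound receptor, had 81.8, 81.7 and 75.5 CPM with bortezomib, against 96.4, 92.9 and 89.8 CPM with DMSO. The groups did not overlap, but the gap was small (log2 fold change -0.22, SE 0.0513, adjusted p = 0.000109). The long noncoding RNA AF127577.4, which overlaps NRIP1 on the same strand, had 5.87% as many counts as NRIP1 over all libraries. In treated control cells it had 23, 31 and 26 counts, where NRIP1 had 670, 734 and 634. With DMSO it had 92, 68 and 65 in control cells, where NRIP1 had 1276, 998 and 966. Whether its reads entered the NRIP1 counts was not tested.

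The secreted products fell too. TFF1 (ENSG00000160182, chromosome 21), a trefoil peptide long used as a readout of estrogen, was scarce in these libraries: 6, 5 and 3 counts in bortezomib-treated control cells, or 0.733, 0.557 and 0.357 CPM, against 17, 15 and 13 counts, or 1.28, 1.40 and 1.21 CPM, with DMSO. The groups did not overlap, at few counts (log2 fold change -1.22, SE 0.417, adjusted p = 0.00696). TFF3 (ENSG00000160180, chromosome 21), the trefoil peptide of goblet cells that luminal tumours also make, had 3.79, 4.12 and 3.81 CPM with bortezomib, against 15.1, 16.9 and 18.2 CPM with DMSO, with every treated library below every DMSO library (log2 fold change -2.09, SE 0.143, adjusted p = 2.66e-18). IGFBP4 (ENSG00000141753, chromosome 17), which binds insulin-like growth factors, had 33.6, 30.6 and 28.8 CPM with bortezomib, against 206, 211 and 224 CPM with DMSO. The groups were far apart (log2 fold change -2.78, SE 0.0570, adjusted p = 1.71e-39).

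Of the membrane and enzyme genes, PDZK1 (ENSG00000174827, chromosome 1), a scaffold that holds transporters at the membrane, had 1, 2 and 0 counts in bortezomib-treated control cells, against 76, 48 and 56 counts with DMSO. Scaled to library size this was 44.2 times fewer counts with bortezomib (95% exact counting interval 14.9 to 216, which covers counting error only), and no treated library came near a DMSO library. The pseudogene PDZK1P1, a copy of PDZK1, had 0 counts in all 12 libraries. CA12 (ENSG00000074410, chromosome 15), a carbonic anhydrase of the cell surface, had 112, 105 and 110.3 CPM with bortezomib, against 379, 374 and 354 CPM with DMSO. All treated libraries were below all DMSO libraries (log2 fold change -1.76, SE 0.0410, adjusted p = 4e-37). SIAH2 (ENSG00000181788, chromosome 3), an E3 ubiquitin ligase that marks proteins for the proteasome, had 73.2, 74.8 and 71.6 CPM with bortezomib, against 114, 113 and 112 CPM with DMSO. Its groups were tight and separate (log2 fold change -0.63, SE 0.0522, adjusted p = 2.65e-15).

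**Figure D1:**
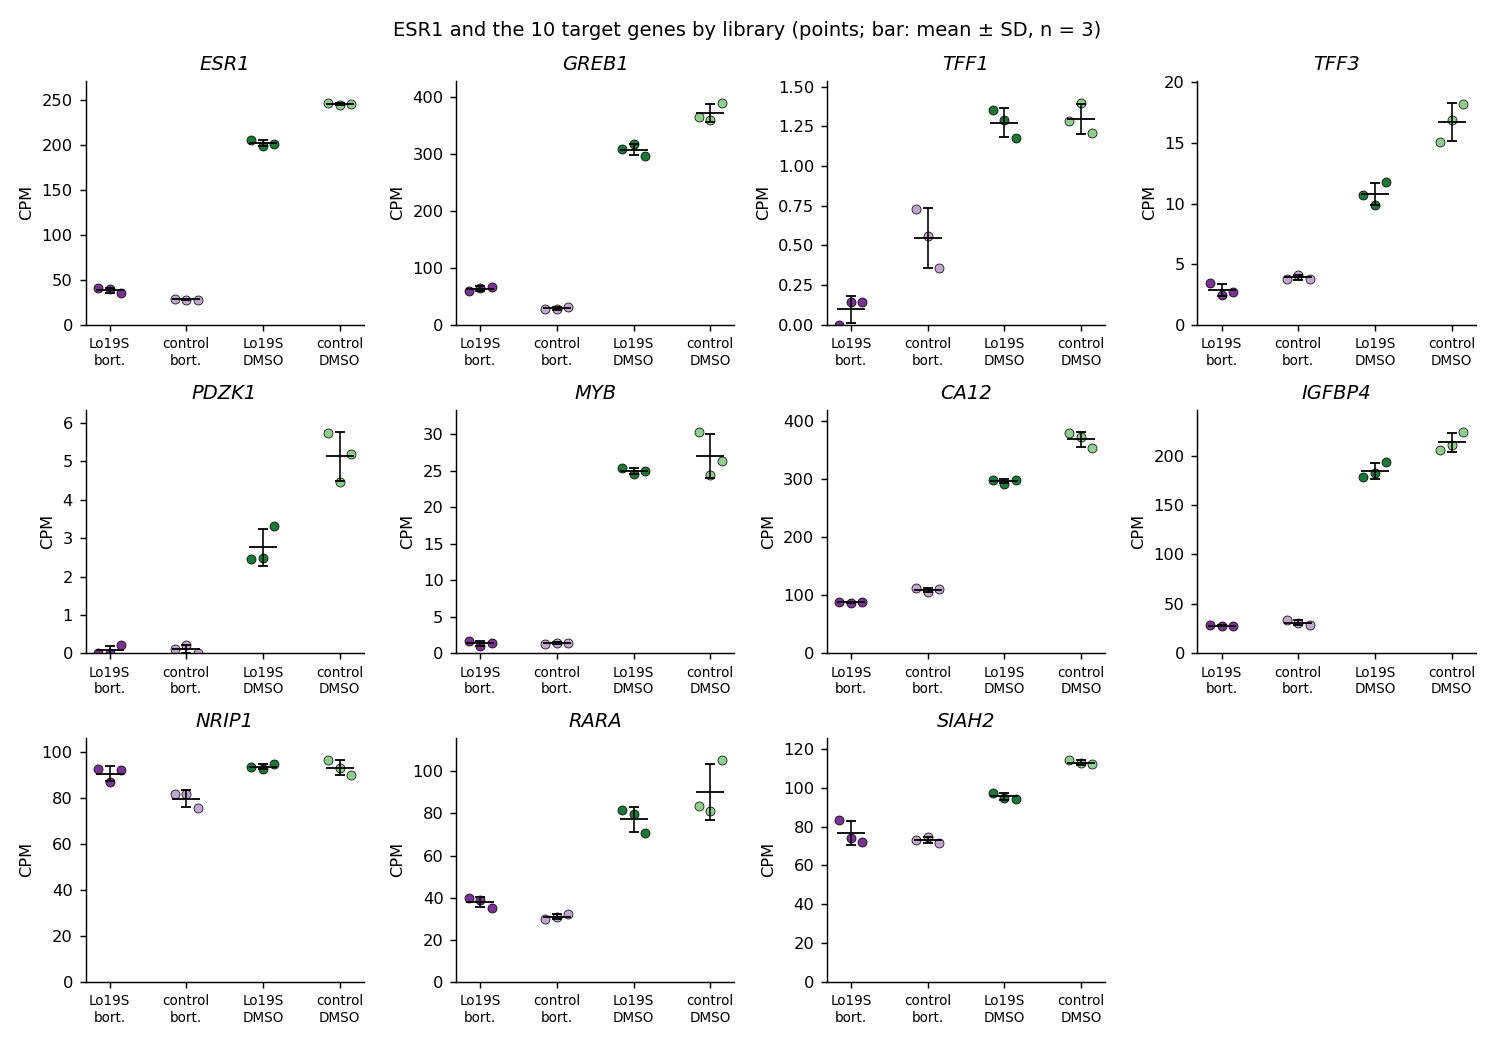
Levels of ESR1 and the 10 target genes in each library, in CPM on a linear axis that starts at 0, by group (bort., bortezomib); points are libraries and bars the mean ± SD of 3. ESR1, GREB1, MYB, IGFBP4 and PDZK1 drop to a small part of their DMSO level with bortezomib, NRIP1 stays between 75.5 and 96.4 CPM in all 12 libraries, and GREB1 is higher in bortezomib-treated Lo19S than control cells.

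Bortezomib had the same overall direction in Lo19S cells. ESR1 fell 5.32-fold, and 9 of the 10 targets were called lower with none called higher, where 39.7% of all genes tested were called lower and 37.8% higher (53.8% and 25.4% under library totals, with the median of all genes at -0.31). The exception was NRIP1, which was not called (log2 fold change -0.04, 97.2% of the DMSO level, adjusted p = 0.452) but passed the threshold under library totals at a log2 fold change of -0.33. The median log2 fold change of the 10 genes was -2.08, against -0.02 for all genes tested, and -1.82 over the 8 genes other than TFF1 and PDZK1, which had 3 counts each in the treated group.

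ESR1 had 40.4, 39.4 and 35.4 CPM in bortezomib-treated Lo19S cells, against 205, 199 and 201 CPM with DMSO, again with no overlap (log2 fold change -2.41, SE 0.0509, adjusted p = 1.15e-38). GREB1 had 59.5, 64.8 and 66.7 CPM with bortezomib, against 309, 317 and 297 CPM with DMSO. It fell 4.81-fold, and its treated libraries lay close together, well below those with DMSO (log2 fold change -2.27, SE 0.0481, adjusted p = 1.32e-38). MYB had 1.67, 1.02 and 1.37 CPM with bortezomib, against 25.4, 24.5 and 25.0 CPM with DMSO. It fell 18.0-fold, with the treated libraries far below the others (log2 fold change -4.17, SE 0.161, adjusted p = 7.41e-28). RARA had 39.7, 38.8 and 35.1 CPM with bortezomib, against 81.6, 79.7 and 70.5 CPM with DMSO, a fall of 2.07-fold with separate groups (log2 fold change -1.05, SE 0.0870, adjusted p = 5.93e-11). NRIP1 had 92.5, 86.9 and 92.3 CPM with bortezomib, against 93.3, 92.5 and 94.7 CPM with DMSO, and its groups lay next to each other.

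TFF1 had 0, 1 and 2 counts in bortezomib-treated Lo19S cells, against 17, 15 and 11 counts with DMSO. This was 12.4 times fewer counts with bortezomib after scaling to library size (95% exact counting interval 3.98 to 62.6), and the groups did not overlap. PDZK1 had 0, 0 and 3 counts with bortezomib, against 31, 29 and 31 counts with DMSO. It was thus almost undetected in treated Lo19S libraries, at 26.3 times fewer counts (95% exact counting interval 8.72 to 130). TFF3 had 3.46, 2.49 and 2.74 CPM with bortezomib, against 10.7, 9.90 and 11.8 CPM with DMSO, and fell 3.70-fold with separate groups (log2 fold change -1.89, SE 0.161, adjusted p = 9.03e-15). IGFBP4 had 28.3, 27.4 and 27.3 CPM with bortezomib, against 178, 182 and 194 CPM with DMSO. Its fall of 6.68-fold again separated every treated library from every DMSO library (log2 fold change -2.74, SE 0.0579, adjusted p = 1.19e-38). CA12 had 88.5, 85.9 and 88.7 CPM with bortezomib, against 299, 293 and 299.7 CPM with DMSO, a fall of 3.38-fold (log2 fold change -1.76, SE 0.0423, adjusted p = 2.67e-36). SIAH2 had 83.6, 74.2 and 72.1 CPM with bortezomib, against 97.5, 94.9 and 94.4 CPM with DMSO. It changed little, by 1.25-fold, and its treated replicate 1 was the highest of the 3 (log2 fold change -0.33, SE 0.0523, adjusted p = 2.63e-07).

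**Figure D2:**
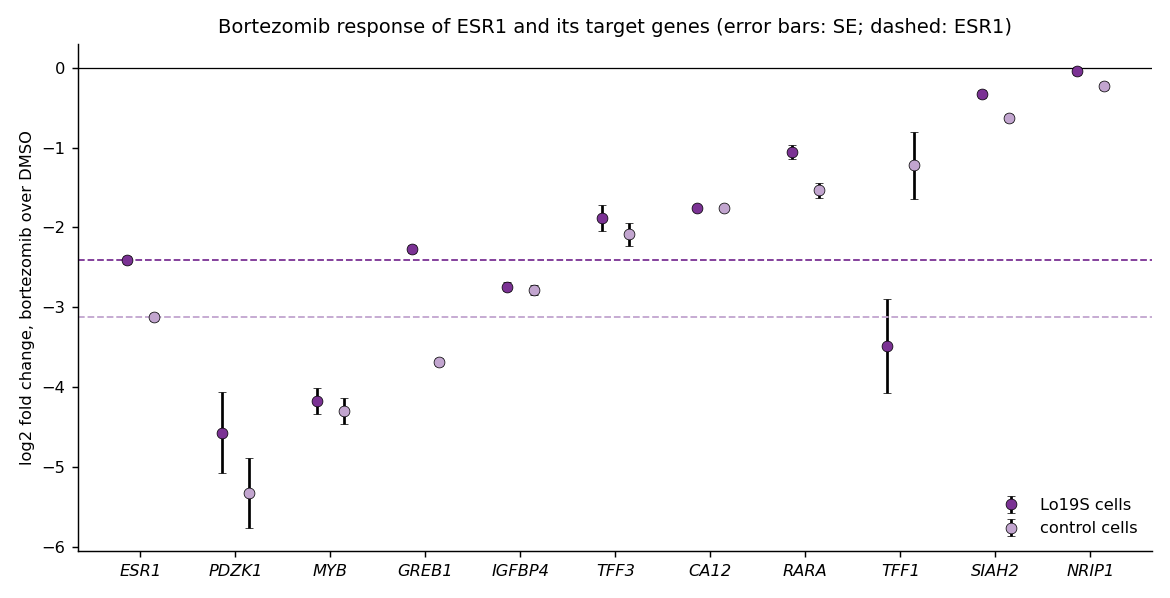
Fitted log2 fold change of bortezomib over DMSO in Lo19S cells (dark) and control cells (light), with SE as error bars; genes run from the largest to the smallest fall in control cells after ESR1, and dashed lines carry the ESR1 value across. In either state PDZK1 and MYB lie below the ESR1 line and SIAH2 and NRIP1 near 0, and GREB1 has the value -2.27 in Lo19S and -3.68 in control cells.

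The bortezomib response differed between the states for 4 of the 10 targets by the test of the difference itself (edgeR interaction contrast, Lo19S minus control, log2). It was higher, meaning a smaller fall in Lo19S cells, for GREB1, RARA and SIAH2, and lower for TFF1, where 14.4% of all genes tested were called higher and 13.4% lower (22.6% and 8.54% under library totals, with the median of all genes at 0.10). GREB1 had the largest positive difference of the 10 at 1.42 (95% interval 1.26 to 1.57, adjusted p = 7.41e-20), and ESR1 differed by 0.71 (0.55 to 0.87, adjusted p = 1.02e-09). RARA differed by 0.49 (0.22 to 0.75, adjusted p = 0.00575) and SIAH2 by 0.30 (0.15 to 0.45, adjusted p = 0.00152). TFF1 had a difference of -2.26 (-3.92 to -0.61, adjusted p = 0.0335) that rests on 3 counts in bortezomib-treated Lo19S cells. Its call was lost without a filter on low counts (adjusted p = 0.0916) and when any one of replicate 1 of DMSO-treated Lo19S cells, replicates 1 or 2 of bortezomib-treated control cells, or replicates 1 or 3 of bortezomib-treated Lo19S cells was left out (adjusted p 0.0544 to 0.109).

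For the other targets the interval shows what size of difference these libraries leave possible. CA12 differed by -0.0006 (95% interval -0.12 to 0.11) and IGFBP4 by 0.04 (-0.13 to 0.22), so their falls in the 2 states were within a narrow range of each other. Without replicate 3 of DMSO-treated control cells the CA12 difference was 0.03 (adjusted p = 0.693). TFF3 differed by 0.20 (-0.28 to 0.68) and MYB by 0.13 (-0.55 to 0.81), which leaves wider limits. NRIP1 missed the threshold at 0.18 (0.04 to 0.33, adjusted p = 0.0502). It passed when replicate 3 of DMSO-treated control cells was left out (0.21, adjusted p = 0.00614) or replicate 2 of bortezomib-treated Lo19S cells (0.21, adjusted p = 0.0353), with limma-voom (0.18, adjusted p = 0.0454), and under library totals (0.28). PDZK1 had 3 counts in either bortezomib group, and no difference is given for it.

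Under bortezomib, Lo19S cells held more receptor mRNA than control cells and much more of GREB1. ESR1 averaged 38.4 ± 2.62 CPM in Lo19S cells and 28.2 ± 0.324 CPM in control cells (SD, n = 3 each), 1.35-fold higher (log2 fold change 0.43, SE 0.0696, adjusted p = 1.51e-06). GREB1 averaged 63.7 ± 3.72 CPM in Lo19S cells and 28.9 ± 2.34 CPM in control cells, 2.21-fold higher with no overlap of libraries (log2 fold change 1.15, SE 0.0673, adjusted p = 2.32e-19). NRIP1 was also called higher (log2 fold change 0.19, SE 0.0528, adjusted p = 0.00309), as was RARA (log2 fold change 0.27, SE 0.105, adjusted p = 0.0378). CA12 was lower, with an average of 87.7 ± 1.56 CPM in Lo19S cells and 109 ± 3.72 CPM in control cells (log2 fold change -0.31, SE 0.0473, adjusted p = 3.01e-07). In all, 3 of the 10 targets were called higher and 2 lower, where 22% of all genes tested were called higher and 21.2% lower (33.4% and 12.8% under library totals, with the median of all genes at 0.11). The targets were thus called in both directions, at counts near those shares. Their median log2 difference was -0.08, or 0.03 without TFF1 and PDZK1. The sign of that median is not settled: it was 0.06 without replicate 2 of bortezomib-treated control cells, 0.10 without replicate 2 of bortezomib-treated Lo19S cells, and 0.03 under library totals. When only the groups compared were fitted, 13151 genes passed the filter. The median was then 0.03, the same as without TFF1 and PDZK1.

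The second target called lower was TFF1, with 3 counts in all in Lo19S cells and 14 in control cells, 5.31 times fewer after scaling (95% exact counting interval 1.48 to 28.8, adjusted p = 0.0118). That call was lost without replicate 1 of bortezomib-treated control cells (adjusted p = 0.0591) and without replicate 1 of bortezomib-treated Lo19S cells (adjusted p = 0.0528). The call of RARA was lost without any of the 3 bortezomib-treated control libraries or without replicates 1 or 2 of bortezomib-treated Lo19S cells (adjusted p 0.0542 to 0.123), and with limma-voom (0.0783). TFF3 and IGFBP4 were not called (-0.43, 95% interval -0.86 to -0.01, adjusted p = 0.093, and -0.17, -0.32 to -0.01, adjusted p = 0.0774). IGFBP4 passed when replicate 3 of bortezomib-treated control cells was left out (-0.22, adjusted p = 0.0419). MYB differed by 0.01 (-0.65 to 0.66) and SIAH2 by 0.06 (-0.05 to 0.17), and SIAH2 was called higher under library totals (0.17). PDZK1 had 3 counts in each group.

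Under DMSO the Lo19S state alone came with modestly lower receptor and target mRNA. ESR1 was at 82.3% of its level in control cells (log2 fold change -0.28, SE 0.0394, adjusted p = 1.75e-07), and 7 of the 10 targets were called lower with none called higher, where 13% of all genes tested were called lower and 11.7% higher. The median log2 difference of the 10 was -0.23, against -0.004 for all genes tested. PDZK1 showed the largest difference, at 52.7% of control cells (log2 fold change -0.92, SE 0.204, adjusted p = 0.000465), and TFF3 the next, at 64.4% (log2 fold change -0.63, SE 0.108, adjusted p = 8e-06). CA12 was at 80.4%, GREB1 at 83.0%, SIAH2 at 84.6% and IGFBP4 at 86.5%, all with adjusted p of 0.000161 or less and with no overlap between the libraries of the groups. RARA was called at -0.21 (adjusted p = 0.0377), but its libraries overlapped.

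The RARA call rests on single libraries. Without replicate 3 of DMSO-treated control cells, which had its highest value, the log2 difference was -0.09 (adjusted p = 0.179), which left 6 of the 10 targets called lower. It was also lost without replicates 2 or 3 of DMSO-treated Lo19S cells, replicate 1 of bortezomib-treated control cells or replicate 2 of bortezomib-treated Lo19S cells (adjusted p 0.0503 to 0.154), and with library totals, limma-voom or only the groups compared (0.0615 to 0.0924). TFF1, MYB and NRIP1 were not called and their libraries overlapped. Their log2 differences were -0.02 (95% interval -0.65 to 0.62), -0.12 (-0.29 to 0.05) and 0.01 (-0.09 to 0.10), and without replicate 3 of DMSO-treated control cells that of NRIP1 was -0.02 (adjusted p = 0.766).

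To compare each target with the receptor, the ratio of its count to the ESR1 count in the same library was tested (edgeR, with the ESR1 count as offset). Since the spread of ESR1 enters every gene's ratio and is then shared over genes, these p-values are too small. A limma fit of the log2 ratio with each gene's own variance was therefore added after the data were seen, and changes, SE and adjusted p-values are from that fit unless edgeR is named. Each target's count entered that fit with 0.5 added, which can set much of the value at counts as low as those of PDZK1 with bortezomib. That fit takes a common variance for each gene over all 4 groups. Its SE is thus the same in every comparison and does not follow the counts there, so its p-values can be too small or too large. With bortezomib in control cells, 3 of the 10 targets were lower relative to ESR1 and 7 higher, that is, less lowered, where 1.04% of all genes tested were lower and 94.2% higher relative to ESR1. The counts of targets were equal with edgeR, against 1.21% and 94% of all genes. The 3 were PDZK1 (log2 change of the ratio -2.03, SE 0.696, adjusted p = 0.0203), MYB (-1.13, SE 0.160, adjusted p = 0.000125) and GREB1 (-0.56, SE 0.0951, adjusted p = 0.000395). The PDZK1 value rests on 1, 2 and 0 counts with bortezomib, and was -2.32 with edgeR (SE 0.650). IGFBP4 was closest among the 7 (0.34, SE 0.0652, adjusted p = 0.000961), and NRIP1 farthest (2.90, SE 0.0603, adjusted p = 1.64e-10). Since ESR1 stood among the 2.89% of tested genes with the most negative log2 fold changes, most genes were less lowered than it.

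With bortezomib in Lo19S cells, 3 of the 10 were lower and 5 higher relative to ESR1, where 1.64% of all genes tested were lower and 91.7% higher. With edgeR 3 were lower and 6 higher, against 1.83% and 92.3% of all genes. PDZK1 (-2.35, SE 0.696, adjusted p = 0.0106) and MYB (-1.78, SE 0.160, adjusted p = 5.51e-06) were again more lowered than the receptor, and IGFBP4 was as well (-0.34, SE 0.0652, adjusted p = 0.00095). The PDZK1 value rests on 0, 0 and 3 counts with bortezomib, and was -2.27 with edgeR (SE 0.665). GREB1 followed ESR1 closely there and was not called (0.12, SE 0.0951, adjusted p = 0.238), though it was past the threshold with edgeR (0.14, SE 0.0677, adjusted p = 0.0431). Its edgeR call was lost without any single library other than replicates 2 and 3 of DMSO-treated control cells, replicate 2 of DMSO-treated Lo19S cells and replicate 1 of bortezomib-treated Lo19S cells, and without replicate 3 of bortezomib-treated Lo19S cells its change of ratio was 0.03. The edgeR call of TFF3 (0.52, SE 0.195, adjusted p = 0.00772) was lost without replicate 1 of bortezomib-treated Lo19S cells (0.44). The number of GREB1 counts per ESR1 count was 1.47, 1.65 and 1.88 in bortezomib-treated Lo19S cells and 0.953, 0.992 and 1.13 in bortezomib-treated control cells, against 1.51, 1.59 and 1.47 in Lo19S cells and 1.48, 1.47 and 1.59 in control cells with DMSO. Only the bortezomib-treated control libraries were apart from the rest.

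**Figure D3:**
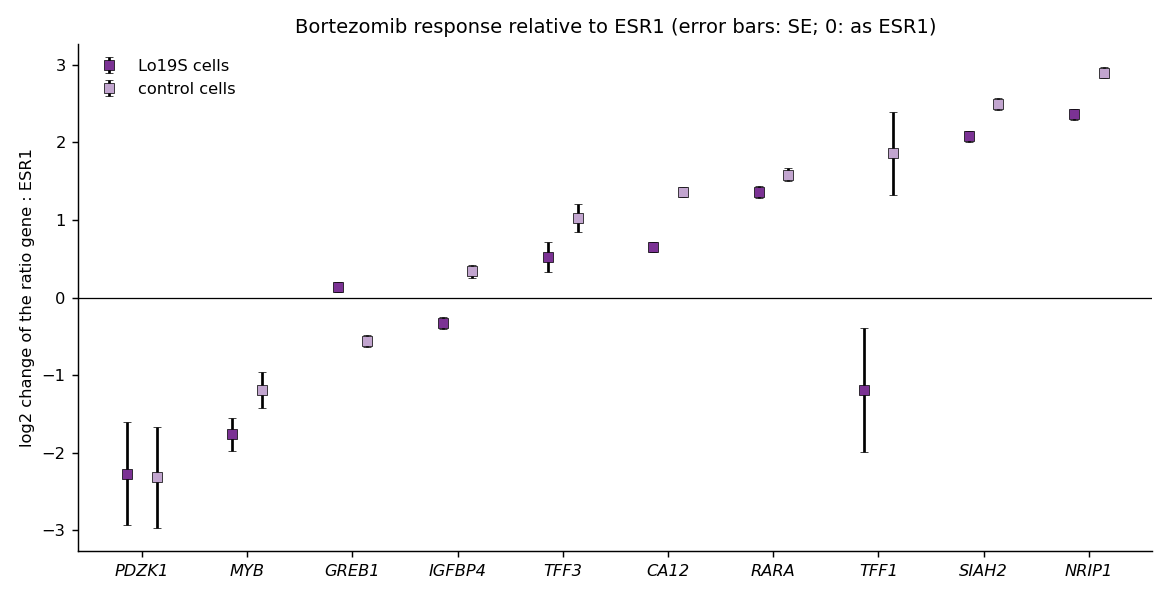
Log2 change fitted with edgeR of the ratio of each target to ESR1, bortezomib over DMSO, in Lo19S cells (dark) and control cells (light), with SE as error bars; 0 means a fall equal to that of ESR1. PDZK1 and MYB lie below 0 in either state, GREB1 at 0.14 in Lo19S and -0.56 in control cells, and CA12, RARA, SIAH2 and NRIP1 above 0 in either state.

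Under bortezomib, 7 of the 10 targets were lower relative to ESR1 in Lo19S than in control cells and 1 was higher, where 61.1% of all genes tested were lower and 3.41% higher. The one that was higher was GREB1 (0.70, SE 0.0951, adjusted p = 0.000356). With edgeR 6 were lower and 1 higher, against 62.4% and 3.59% of all genes. MYB was called with its own variance (-0.48, SE 0.160, adjusted p = 0.0296) but not with edgeR (-0.41, SE 0.341, adjusted p = 0.28). It had only 14, 7 and 19 counts in Lo19S and 10, 13 and 12 counts in control cells under bortezomib. The own-variance SE also takes in the DMSO libraries with far more counts, so this call, and with it the count of 7, is not secure. TFF1 was called lower with its own variance (-2.58, SE 0.477, adjusted p = 0.00175) and with edgeR (-2.79, SE 0.827, adjusted p = 0.00144). It had only 0, 1 and 2 counts in Lo19S and 6, 5 and 3 counts in control cells under bortezomib, so its calls are not secure either. The count of 7 of the 10 also lies near the share of 61.1% over all genes. Under DMSO, Lo19S against control, 1 of the 10 was lower relative to ESR1 and 1 higher, where 0.741% of all genes tested were lower and 45.1% higher. With edgeR 2 were lower and 1 higher, against 1.35% and 56.8% of all genes. TFF3 was lower (-0.35, SE 0.119, adjusted p = 0.043), and its edgeR call was lost without replicate 2 of DMSO-treated Lo19S cells (-0.31). PDZK1 was called with edgeR (-0.64, SE 0.208, adjusted p = 0.00483) but not with its own variance (-0.61, SE 0.696, adjusted p = 0.498). The latter SE also takes in the bortezomib libraries, which had 0 to 3 counts each. Under DMSO PDZK1 had 31, 29 and 31 counts in Lo19S and 76, 48 and 56 in control cells, without overlap in CPM. NRIP1 was higher (0.29, SE 0.0603, adjusted p = 0.00666), and with edgeR, without replicate 3 of DMSO-treated control cells, RARA was as well (0.19, adjusted p = 0.0205). GREB1, CA12, IGFBP4 and SIAH2 were not called, with changes of ratio between -0.03 and 0.07.

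The pattern of ESR1 over the groups was compared with that of all other genes by the Euclidean distance of the 3 log2 fold changes against DMSO-treated control cells. The nearest of 14713 genes were ENSG00000255735, which has no symbol in the tables used, at 0.11, CTXN1 at 0.12, SLFN11 at 0.14, TMPO-AS1 at 0.15 and CBFA2T3 at 0.16. No target was among these 5. IGFBP4 was the closest target at rank 77 (distance 0.43), then GREB1 at rank 161 (0.58) and TFF3 at rank 583 (1.11). CA12 ranked 966, MYB 1601, TFF1 1730 and RARA 1797, while SIAH2 at 4316, PDZK1 at 5468 and NRIP1 at 6666 were far from the receptor's pattern. SIAH2 and NRIP1 fell less than ESR1 with bortezomib. PDZK1 fell by more, and its distance rests on 3 counts in each bortezomib group.

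A wider list of 44 other genes that estrogen raises gave a mixed picture. Of its 42 measured genes, 32 fell and 10 rose with bortezomib in control cells (median log2 fold change -1.46), and 30 fell and 12 rose in Lo19S cells (-1.04). The shares over all genes tested were 42.2% lower and 39.2% higher in control cells, and 39.7% and 37.8% in Lo19S cells. PGR, the progesterone receptor, averaged 115 ± 8.36 CPM in bortezomib-treated Lo19S cells and 50.2 ± 1.64 CPM in bortezomib-treated control cells, against 935 ± 2.33 CPM in Lo19S cells and 1094 ± 35.0 CPM in control cells with DMSO (SD, n = 3 each). It thus fell in either state, with log2 fold changes of -3.03 in Lo19S and -4.44 in control cells, and its response differed between the states by 1.42 (adjusted p = 1.31e-23), close to the value of GREB1. CXCL12, a chemokine, fell with log2 fold changes of -5.08 in Lo19S and -5.01 in control cells, and OLFM1, a secreted olfactomedin, with -3.99 and -4.11. HSPB8, a small heat shock protein, rose instead, to 1938 ± 29.7 CPM in Lo19S and 3509.9 ± 50.5 CPM in control cells under bortezomib, against 272 ± 5.59 CPM and 230.1 ± 9.20 CPM under DMSO. AREG, a ligand of the EGF receptor, rose by 2.76 in Lo19S and 3.16 in control cells on the log2 scale, and the transcription factor gene MYC by 1.32 and 1.29.

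Across the 42 genes the difference of the bortezomib responses was called higher in Lo19S cells for 23 and lower for 2, HSPB8 and FKBP4, with a median of 0.35 against 0.01 for all genes tested, of which 14.4% were called higher and 13.4% lower (22.6% and 8.54% under library totals). Under bortezomib 18 of the 42 were higher and 6 lower in Lo19S than in control cells, where 22% of all genes were higher and 21.2% lower. Under DMSO 6 were higher and 20 lower, where 11.7% of all genes were higher and 13% lower. Without replicate 3 of DMSO-treated control cells the difference was called higher for 24 and lower for 3, and under bortezomib 19 were higher and 7 lower. The fall with bortezomib in control cells was still called for 32 of the 42.

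Partner transcription factors of the receptor fell with bortezomib as well. Of 7 measured, 6 fell and 1 rose in either state, with median log2 fold changes of -1.59 in Lo19S and -2.34 in control cells, where 39.7% and 42.2% of all genes tested fell. GATA3, a luminal lineage factor, averaged 220.5 ± 4.33 CPM in bortezomib-treated Lo19S cells and 96.0 ± 2.22 CPM in bortezomib-treated control cells, against 663 ± 15.2 CPM and 700.1 ± 48.6 CPM with DMSO (SD, n = 3 each). SPDEF, an ETS factor, fell with log2 fold changes of -3.16 in Lo19S and -3.26 in control cells. The one that rose was RUNX1, with 1.15 in Lo19S and 0.86 in control cells. The response differed between the states for 6 of the 7, all with a positive difference (GATA3 1.28, RUNX1 0.29), and 5 of the 7 were higher in Lo19S than in control cells under bortezomib, where 14.4% and 22% of all genes tested were higher in these comparisons.

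Coactivators and corepressors of the receptor moved in both directions. Of 15 measured, 9 rose and 4 fell with bortezomib in Lo19S cells (median 0.17), and 8 rose and 5 fell in control cells (median 0.24), and none fell by 2-fold or more. These counts lie near the shares over all genes tested, 37.8% higher and 39.7% lower in Lo19S cells and 39.2% and 42.2% in control cells. KMT2C, a histone methyltransferase, rose by 0.85 in Lo19S and 0.80 in control cells on the log2 scale, and NCOA3, a coactivator of the p160 family, by 0.81 and 0.77. PRMT1, an arginine methyltransferase, rose by 0.47 and 0.68. The values were -0.31 and -0.58 for the histone demethylase KDM1A, and -0.46 and -0.43 for TRIM24, a bromodomain coactivator, in Lo19S and control cells.

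**Figure D4:**
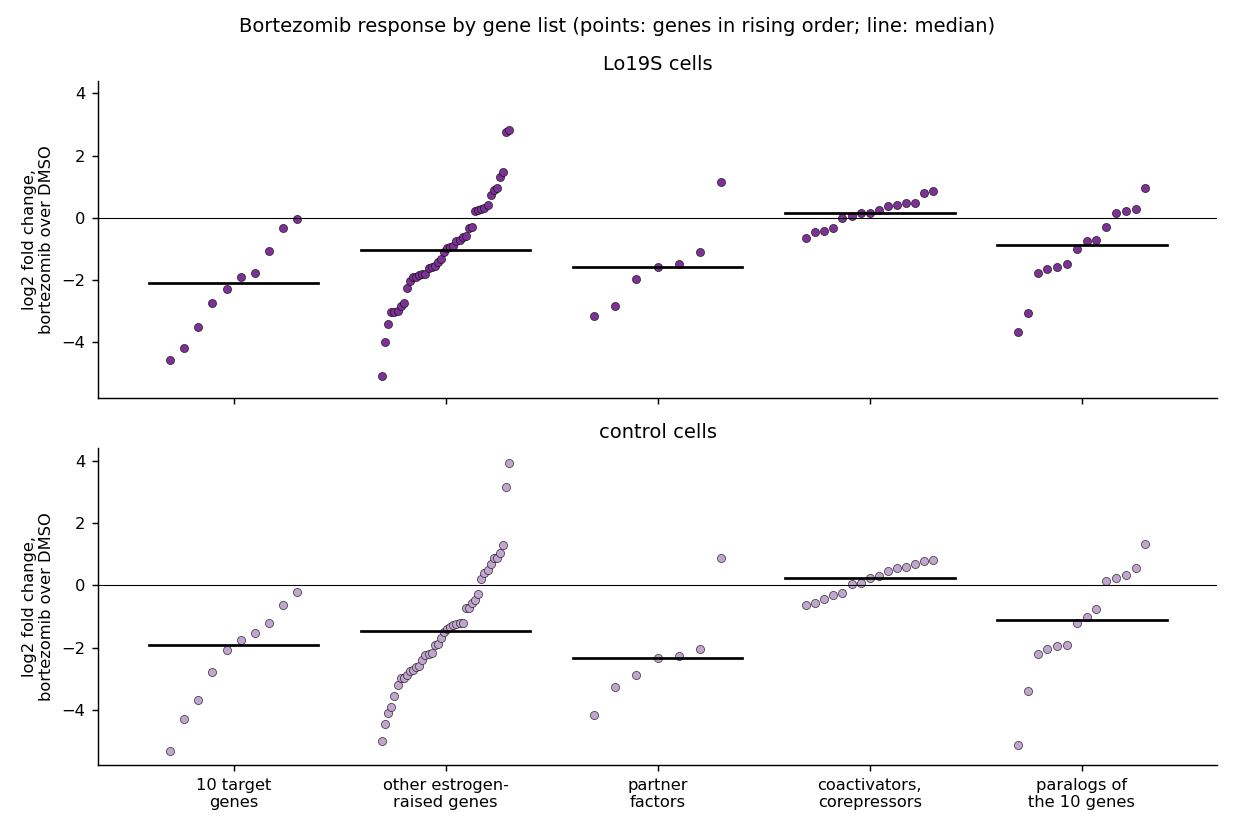
Fitted log2 fold change of bortezomib over DMSO for each measured gene of 5 lists, in rising order within a list, in Lo19S cells (top) and control cells (bottom); the black line is the median of the list. Medians of the 10 targets are -2.08 and -1.92, of the partner factors -1.59 and -2.34, and of the coactivators and corepressors 0.17 and 0.24 in Lo19S and control cells.

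Of 22 listed paralogs of the targets, 14 were measured, and 9 fell and 3 rose with bortezomib in either state, where 39.7% of all genes tested fell and 37.8% rose in Lo19S cells and 42.2% and 39.2% in control cells. NHERF1 and MYBL1, which both fell, are also counted in the list of other estrogen-raised genes above. IGFBP5, a paralog of IGFBP4, averaged 31.4 ± 3.15 CPM in Lo19S and 16.1 ± 3.52 CPM in control cells under bortezomib, against 393 ± 14.6 CPM and 566 ± 5.43 CPM under DMSO (SD, n = 3 each). NHERF1 and NHERF2, scaffolds related to PDZK1, fell with log2 fold changes of -1.56 and -3.06 in Lo19S cells and -2.22 and -3.39 in control cells. SIAH1, the paralog of SIAH2, rose by 0.97 in Lo19S and 1.34 in control cells. MYBL2, a cell cycle relative of MYB, rose by 0.22 and 0.31, and RXRB, which pairs with the retinoic acid receptors, by 0.29 and 0.56.

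Of 3 genes that estrogen lowers, none rose with bortezomib, where 37.8% of all genes tested rose in Lo19S and 39.2% in control cells. So few genes cannot be told apart from those shares. BIK had a log2 fold change of -0.80 in Lo19S cells and -0.07 in control cells, where it was not called. ERBB2, the HER2 receptor gene, averaged 75.7 ± 4.76 CPM in Lo19S and 38.8 ± 3.57 CPM in control cells under bortezomib, against 155 ± 1.94 CPM and 148 ± 9.42 CPM under DMSO (SD, n = 3 each), and CCNG2, an atypical cyclin, had a log2 fold change of -0.45 in either state. The other estrogen receptors were scarce. ESR2 had at most 9 counts in a library and did not pass the filter, and GPER1, a membrane receptor, had 1, 2 and 4 counts in Lo19S and 16, 6 and 5 counts in control cells under bortezomib, against 11, 12 and 7 counts and 8, 8 and 14 counts under DMSO.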

How the data were processed

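Each deposited file holds the raw read counts of 1 library by Ensembl gene, made by the authors with STAR 2.5.4b and featureCounts 1.6.1 on GRCh37, per the submitters' processing notes; per the labels' protocols, libraries came from a stranded polyA kit. Overlapping genes and copies are uncertain, since the strand setting, the annotation and the handling of multiply matching reads were not given in the sources used here. Of 57773 identifiers, 51996 matched a symbol. Counts were tested with edgeR 4.0.16 in R 4.3.3 (filterByExpr, TMM factors of 0.855 to 1.13, robust quasi-likelihood fit over all 12 libraries, Benjamini-Hochberg over 14714 genes, threshold 0.05). Ratios to ESR1 used its count as offset; limma 3.58.1 and DESeq2 1.42.0 served as alternatives, with other scalings, no filter, a replicate block and each library left out. Intervals are 95%. Replicate numbers were not taken as pairs. The fit was tested on simulated counts.

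The 10 genes and all lists were chosen with earlier results of these data known. Named from each list were up to 3 called genes with the largest rise and 3 with the largest fall with bortezomib in control cells, and the 5 genes nearest to ESR1; FKBP4, GPER1 and ESR2 were chosen after their values were seen, and some genes under this rule are not reported here. Reference chromosomes and promoters are GRCh38 and carry no coordinates of the count files.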

Additional observations from a re-analysis of the deposited data

Results flagged for a closer look

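The bortezomib response of 4 target genes and of ESR1 differed between Lo19S and control cells by the interaction contrast (edgeR, Lo19S minus control, log2 scale, 3 libraries a group). Of the 10 targets 3 were called higher and 1 lower. Over all genes tested 14.4% were called higher and 13.4% lower (22.6% and 8.54% under library totals). The difference was 1.42 for GREB1, 0.71 for ESR1, 0.49 for RARA and 0.30 for SIAH2, each meaning a smaller fall in Lo19S cells, and -2.26 for TFF1, which had 3 counts in all in bortezomib-treated Lo19S cells. The TFF1 call was lost without a filter on low counts (adjusted p = 0.0916). It was also lost when any of several single libraries was left out (adjusted p 0.0544 to 0.109). Summed luminal markers ran from 3887 to 4062 CPM in Lo19S and 3928 to 4011 CPM in control cells under bortezomib. Under DMSO they ran from 6192 to 6283 CPM and 6963 to 7053 CPM, so that their sum also fell less in Lo19S cells. That sum includes ESR1, and also PGR, KRT19, GATA3 and FOXA1 from the lists of estrogen-raised genes and partner factors. It is thus no measure apart from the receptor and its targets. Of the 9 markers, 6 fell and 3 rose with bortezomib in either state. The part of the markers in these differences was not tested.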

How the results depend on the processing

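Of 1618 effects of single genes recomputed under an alternative, 1540 kept their direction and their side of the threshold. No value that changed sign was called as reported. In Lo19S against control under bortezomib, MYB was at -0.00773 with DESeq2 size factors, -0.00849 with the DESeq2 Wald test and -0.0184 with limma-voom. Under DMSO, TFF1 was at 0.00222 with library totals and NRIP1 at -0.0181 without a filter. The CA12 difference of responses was 0.0924 with library totals, 0.0204 without a filter and 0.00123 with limma-voom. Among the 10 targets, the number with a lower response in Lo19S cells was 0 without a filter and with the DESeq2 Wald test, which gives no adjusted p for TFF1. The number lower in Lo19S than in control cells under bortezomib was 1 when only the groups compared were fitted. The number lower relative to ESR1 under DMSO was 0 with limma-trend and 1 with each gene's own variance.

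Leaving out 1 library at a time gave, for Lo19S against control under DMSO, -0.0226 to 0.0301 for NRIP1 and -0.0662 to 0.0335 for TFF1. Under bortezomib it gave -0.124 to 0.122 for MYB, -0.00488 to 0.114 for SIAH2 and 1 to 3 targets lower, and NRIP1 with bortezomib in Lo19S cells ranged from -0.0533 to 0.00887. The difference of responses ran from -0.0257 to 0.0323 for CA12 and -0.00298 to 0.105 for IGFBP4, with 0 to 1 targets lower. Relative to ESR1 under DMSO, GREB1 ran from -0.0229 to 0.0460 and RARA from -0.000676 to 0.190, with 1 to 2 targets higher and 1 to 2 lower. The cause of these changes was not tested.

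The replicate numbers did not pair the libraries: same-numbered libraries deviated with r of -0.09 to 0.03, and 4 of 12 libraries correlated best with their own number. With a replicate block 6 targets in place of 7 were lower under DMSO, and 2 in place of 3 were higher in Lo19S cells under bortezomib, RARA being the gene lost (adjusted p = 0.0589 and 0.0529). GREB1 relative to ESR1 in Lo19S cells also lost its call (adjusted p = 0.0681), and no other call of a target changed. At 0 to 76 counts a library, TFF1 and PDZK1 set the limit of what depth can show.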
